A study of Rattus norvegicus with 8 samples.

Results

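Expression of 10 marker genes of Kupffer cells and other macrophages was examined in the livers of rats fed an iron-deficient or a control diet. The genes were Lyz2, Mrc1, Lgals3, Cd163, Cd68, Cd14, Marco, C1qa, C1qb and Csf1r, and a probe set was taken where the platform annotation gave it exactly 1 gene symbol and that symbol was among the 10. This gave 9 probe sets, 1 for each gene other than Marco, of 31042 probe sets in all. Expression of Marco was not analysed here. The arrays came from male Sprague-Dawley rats, an outbred strain, at 7 weeks of age, with 4 livers from rats on a diet from which the added ferric citrate had been left out and 4 from rats on the same diet with it. Per the labels, 7 and 6 rats received these diets, food was offered in daytime hours alone over the last days, and the rats had eaten for 1.5 h when they were killed on day 17. The rats were 3 weeks old at purchase, and hemoglobin in the iron-deficient group was 42% of control. The labels call each array a biological replicate and do not say which of the rats gave them.

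Kupffer cells are the resident macrophages of the liver. They sit in the sinusoids, clear particles and bacterial products from portal blood, and engulf old red cells, whose heme iron they return to the circulation through the exporter ferroportin. Macrophage survival depends on the receptor encoded by Csf1r, and the transcription factor PU.1 drives many macrophage genes from purine-rich boxes in their promoters. In RNA from whole liver, fewer cells of a type and less RNA per cell cannot be told apart.

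The array values are deposited on a log2 scale, read from their range of 5.32 to 16.10, and array medians lay between 7.1199 and 7.1207. Group means were a median of 4.49e-06 apart. The steps by which the values were made are not given, so a deposited difference is not read as a fold change here, sizes are not set against each other between genes, and values below are given in units of 0.0001 on the deposited log2 scale, counted from the control mean of the same probe set. The standardised difference of each of the 9 probe sets, scaled by the SD within groups, is given as well. The number of arrays, 4 in each group, limits the precision. All 9 probe sets had means above the 25th percentile of the table (6.55), from 8.36 for Cd163 to 10.86 for C1qa. The hepcidin gene Hamp, which falls when iron is low, set 1 library apart, since it read 10.58 in iron-deficient replicate 2 and 6.93 to 6.99 in the other 3 iron-deficient livers, against 15.99 to 16.10 in controls.

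Promoter windows of RefSeq (GRCr8, 250 bases before to 50 after the annotated start) were matched by symbol for 9 of the 10 genes. Those of Lyz2 and Mrc1 are shown because their probe sets separated the groups, and those of C1qa and C1qb because their windows start only 12.1 kb apart on the same strand. Capitals mark the PU.1 purine box GAGGAA or its reverse complement TTCCTC, which holds the GGAA core common to the wider ETS family of factors. The windows lie at chr7:54797962-54798261 (minus strand), chr17:82157475-82157774 (plus strand), chr5:154419884-154420183 (minus strand) and chr5:154407778-154408077 (minus strand) in this order.
Lyz2: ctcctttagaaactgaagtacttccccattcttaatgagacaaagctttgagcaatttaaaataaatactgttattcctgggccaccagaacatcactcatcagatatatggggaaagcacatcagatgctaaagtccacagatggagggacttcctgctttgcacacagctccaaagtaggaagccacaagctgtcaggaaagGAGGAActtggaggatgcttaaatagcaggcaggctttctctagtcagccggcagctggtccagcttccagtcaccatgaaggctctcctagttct
Mrc1: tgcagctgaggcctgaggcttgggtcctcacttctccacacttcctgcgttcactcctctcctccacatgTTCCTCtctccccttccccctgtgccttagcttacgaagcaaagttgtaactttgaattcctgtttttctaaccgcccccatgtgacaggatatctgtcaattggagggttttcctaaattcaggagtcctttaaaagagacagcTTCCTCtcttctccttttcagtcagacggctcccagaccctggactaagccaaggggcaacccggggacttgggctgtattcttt
C1qa: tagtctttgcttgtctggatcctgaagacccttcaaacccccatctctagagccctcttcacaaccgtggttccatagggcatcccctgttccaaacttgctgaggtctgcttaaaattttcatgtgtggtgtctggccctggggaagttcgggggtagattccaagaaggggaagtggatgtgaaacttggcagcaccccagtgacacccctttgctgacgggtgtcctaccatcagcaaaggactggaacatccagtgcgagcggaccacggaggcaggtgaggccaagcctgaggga
C1qb: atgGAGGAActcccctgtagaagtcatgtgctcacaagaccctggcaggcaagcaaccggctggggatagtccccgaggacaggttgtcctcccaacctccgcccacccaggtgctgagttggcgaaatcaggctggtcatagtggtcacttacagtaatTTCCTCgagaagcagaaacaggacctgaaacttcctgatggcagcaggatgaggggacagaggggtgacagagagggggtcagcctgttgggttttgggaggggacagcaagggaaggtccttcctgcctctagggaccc

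The box was found on either strand in 7 of the 9 windows matched (C1qb, Lyz2, Cd68, Marco, Mrc1, Cd14 and Csf1r), where 27.6% of all 33469 windows of this length held it. The Lyz2 window held 1 match, whose first base lay at position -46 from the start, and the Mrc1 window held 2, at -180 and -35. The C1qa window held none and the C1qb window 2. The hypoxia response core ACGTG or its reverse complement CACGT was in the Csf1r window alone, against 19.3% of all windows. A match is a string of letters in these windows and no measured binding.

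The comparison asked whether macrophage transcripts differed between livers of iron-deficient and control rats. All 9 probe sets had a higher mean in iron-deficient livers as deposited, where 49.6% of all probe sets did, but only 4 of the 9 (Lyz2, Mrc1, Lgals3 and Cd14) were higher after quantile normalization computed without Hamp, where 32.6% of all were. None of the 9 passed limma's Benjamini-Hochberg adjusted p of 0.05, a threshold passed by 0.0322% of all probe sets. In simulated data with the spread of these arrays, 0% of shifts of 2 SD and 30% of shifts of 4 SD passed it. Not passing therefore does not show that a gene was unchanged. At an unadjusted p under 0.05, 2 of the 9 were higher (Lyz2 and Mrc1) and 0 lower, where 5.20% of all probe sets were higher. The same 2 had no overlap between the groups, where 3.07% of all probe sets had none and were higher. With a trended and robust variance model 0 of the 9 passed and 2 had an unadjusted p under 0.05. The median standardised difference of the 9 was 0.824, against -0.0727 over 14217 genes. Single values were 1.09 for C1qb, 0.824 for Cd163, 0.713 for Cd14, 0.564 for C1qa, 0.476 for Cd68 and 0.0688 for Csf1r. Those of Lyz2, Mrc1 and Lgals3 follow below.

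**Figure D1:**
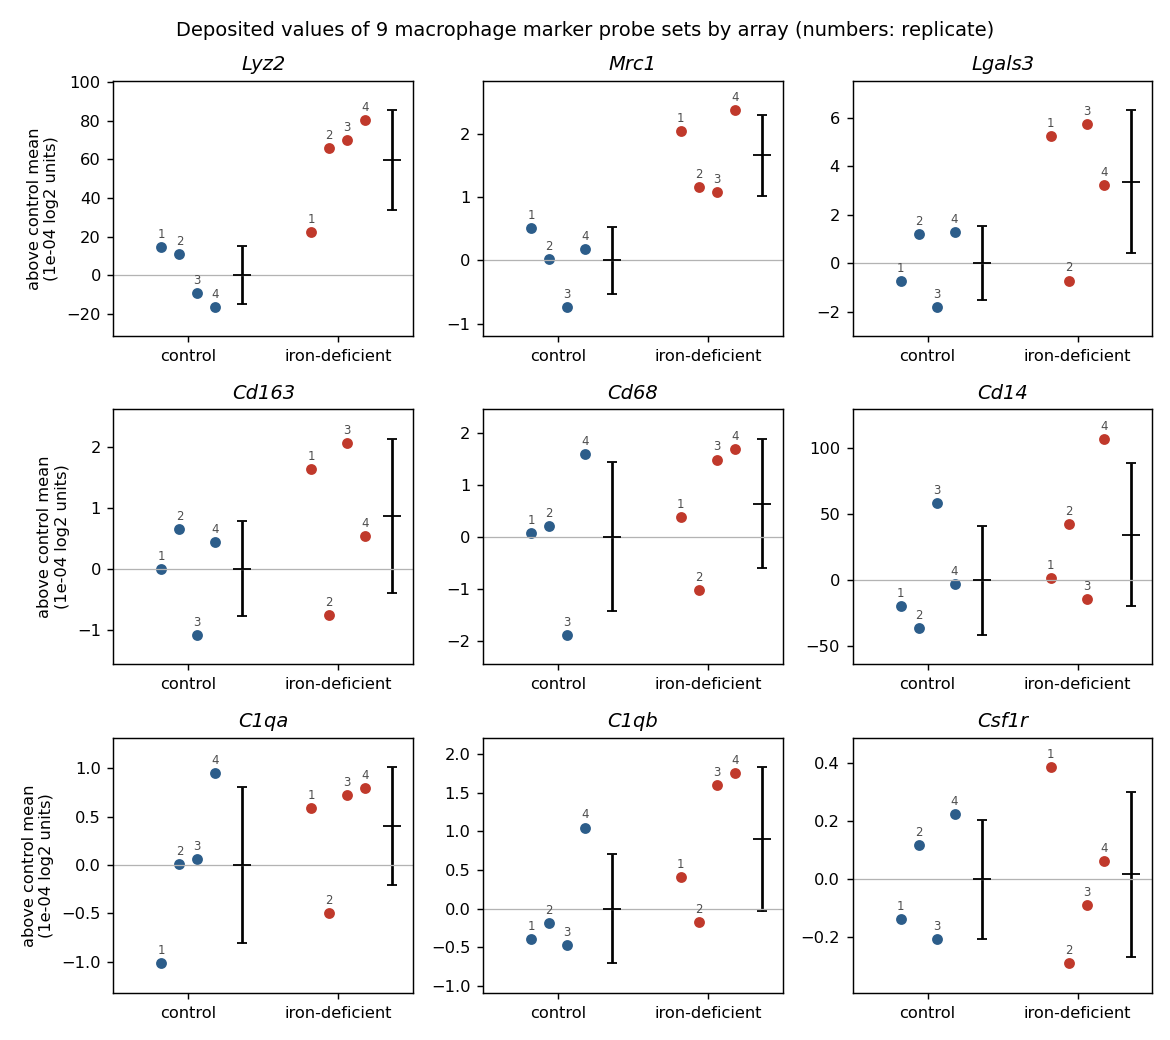
Deposited values of the 9 probe sets by array, on the vertical axis as the distance from the control mean in units of 0.0001 on the log2 scale, with its own axis range for each gene. Blue points are control and red points iron-deficient livers numbered by replicate, and the black marks give the group mean with its SD (n = 4). Lyz2 and Mrc1 have every iron-deficient liver above every control liver, and the other 7 genes overlap.

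Lyz2, which encodes the lysozyme that macrophages and neutrophils secrete against bacterial walls, read 22.3, 65.8, 70.1 and 80.5 units above the control mean in iron-deficient replicates 1 to 4, and 14.4, 11.0, -9.17 and -16.2 in control replicates 1 to 4. Every iron-deficient liver was above every control liver, though replicate 1 of the iron-deficient group lay close to the controls. The difference was 59.7 ± 14.2 units (SE, 4 livers in each group), or 2.84 when standardised, with a limma unadjusted p of 0.00465 and adjusted p of 0.227. An exact permutation test over the arrays gave a two-sided p of 0.0286, the smallest that 4 against 4 can give. Across 14 alternative settings the difference stayed between 52.7 and 72.1 units and its limma adjusted p between 0.0833 and 0.502.

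Mrc1, the mannose receptor that takes up glycoproteins in Kupffer cells and also in sinusoidal endothelial cells, read 2.04, 1.16, 1.08 and 2.37 units above the control mean in iron-deficient replicates 1 to 4, and 0.519, 0.0255, -0.730 and 0.185 in control replicates 1 to 4. All 4 iron-deficient livers were again above all 4 controls, with replicates 1 and 4 highest. The difference was 1.66 ± 0.398 units (SE), a standardised difference of 2.82, with a limma unadjusted p of 0.00478, an adjusted p of 0.231 and an exact permutation p of 0.0286 (two-sided). This separation was not kept under quantile normalization, with or without Hamp, or under median centring, where only Lyz2 had no overlap. The Mrc1 difference was 8.09 ± 2.99 units under quantile normalization (SE; limma unadjusted p = 0.0322), 2.03 ± 4.09 under that normalization without Hamp (0.636) and 2.17 ± 2.30 under median centring (0.365). Under all 3 scalings both the difference and its SE were larger than as deposited.

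Lgals3, a galectin made by macrophages that binds galactose-bearing glycoproteins, read 5.24, -0.716, 5.73 and 3.22 units in iron-deficient replicates 1 to 4, and -0.723, 1.22, -1.79 and 1.29 in control replicates 1 to 4. Iron-deficient replicates 1, 3 and 4 were above every control, and replicate 2 lay among the controls. The difference was 3.37 ± 1.58 units (SE), with a standardised difference of 1.44 (limma unadjusted p = 0.0725, adjusted p = 0.486). Without iron-deficient replicate 2, the only liver of its group not above every control, the groups did not overlap. In that setting 4.56% of all probe sets were higher without overlap, and the Lgals3 difference was 4.73 units (limma adjusted p = 0.301). With another liver left out it went as low as 2.58 units, without iron-deficient replicate 3.

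Cd163, the receptor by which macrophages take up complexes of haptoglobin with free hemoglobin, read 1.63, -0.767, 2.07 and 0.531 units in iron-deficient replicates 1 to 4, and -0.00412, 0.660, -1.09 and 0.434 in control replicates 1 to 4. Iron-deficient replicates 1 and 3 were the highest of the 8 livers, and replicate 2 was below all controls but replicate 3. The difference was 0.866 ± 0.710 units (SE), with a 95% interval from -0.836 to 2.57 (limma adjusted p = 0.714), so a difference in either direction was not shown. It was 1.41 units without iron-deficient replicate 2 (limma adjusted p = 0.512), 0.466 without iron-deficient replicate 3 and 0.503 without control replicate 3.

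C1qa and C1qb encode chains of C1q, the part of the first complement component that recognises antibody and dying cells, and liver C1q comes largely from macrophages. C1qb read 0.414, -0.169, 1.60 and 1.75 units in iron-deficient replicates 1 to 4, and -0.393, -0.186, -0.471 and 1.05 in control replicates 1 to 4. Iron-deficient replicates 3 and 4 were the highest of the 8, and control replicate 4 stood above the other controls. The difference was 0.90 ± 0.559 units (SE; limma adjusted p = 0.610). Control replicate 4 was the only control above any iron-deficient liver, so without it the groups did not overlap. In that setting 5.56% of all probe sets were higher without overlap, and the C1qb difference was 1.25 units (limma adjusted p = 0.454). With a liver left out it ran from 0.617 units, without iron-deficient replicate 4, to 1.26, without iron-deficient replicate 2. C1qa read 0.591, -0.501, 0.725 and 0.793 units in iron-deficient replicates 1 to 4, and -1.02, 0.00470, 0.0615 and 0.952 in control replicates 1 to 4. Its highest liver was control replicate 4 and the ranges overlapped. The difference was 0.402 ± 0.482 units (SE; limma adjusted p = 0.820, 95% interval -0.753 to 1.56). It was 0.0628 units without control replicate 1, 0.703 without iron-deficient replicate 2 and 0.719 without control replicate 4. C1qc, the gene of the remaining chain, named here after its values were seen, differed by 0.329 ± 0.557 units (SE; limma adjusted p = 0.885).

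Cd68, a glycoprotein of macrophage lysosomes, read 0.388, -1.02, 1.49 and 1.70 units in iron-deficient replicates 1 to 4, and 0.0769, 0.218, -1.89 and 1.60 in control replicates 1 to 4. Control replicate 4 was second to iron-deficient replicate 4, and the groups overlapped over most of their range. The difference was 0.641 ± 0.909 units (SE; limma adjusted p = 0.856, 95% interval -1.54 to 2.82). It was 0.00937 units without control replicate 3 and 1.19 without iron-deficient replicate 2.

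Cd14, the receptor that hands lipopolysaccharide to the Toll-like receptor encoded by Tlr4, read 1.78, 42.9, -14.2 and 107 units in iron-deficient replicates 1 to 4, and -19.6, -36.4, 58.5 and -2.51 in control replicates 1 to 4. Replicate 4 was the highest iron-deficient liver and replicate 3 the highest control. The difference was 34.4 ± 32.6 units (SE; limma adjusted p = 0.760, 95% interval -43.7 to 112). Without iron-deficient replicate 4 it was 10.1 units, and without control replicate 3 it was 53.9 units.

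Csf1r, the receptor for the macrophage growth factor encoded by Csf1, read 0.386, -0.290, -0.0893 and 0.0617 units in iron-deficient replicates 1 to 4, and -0.138, 0.120, -0.205 and 0.224 in control replicates 1 to 4. Both the highest and the lowest liver were iron-deficient. The difference was 0.0171 ± 0.168 units (SE; limma adjusted p = 0.987, 95% interval -0.385 to 0.419), and it turned lower without iron-deficient replicate 1, control replicate 1 or control replicate 3.

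**Figure D2:**
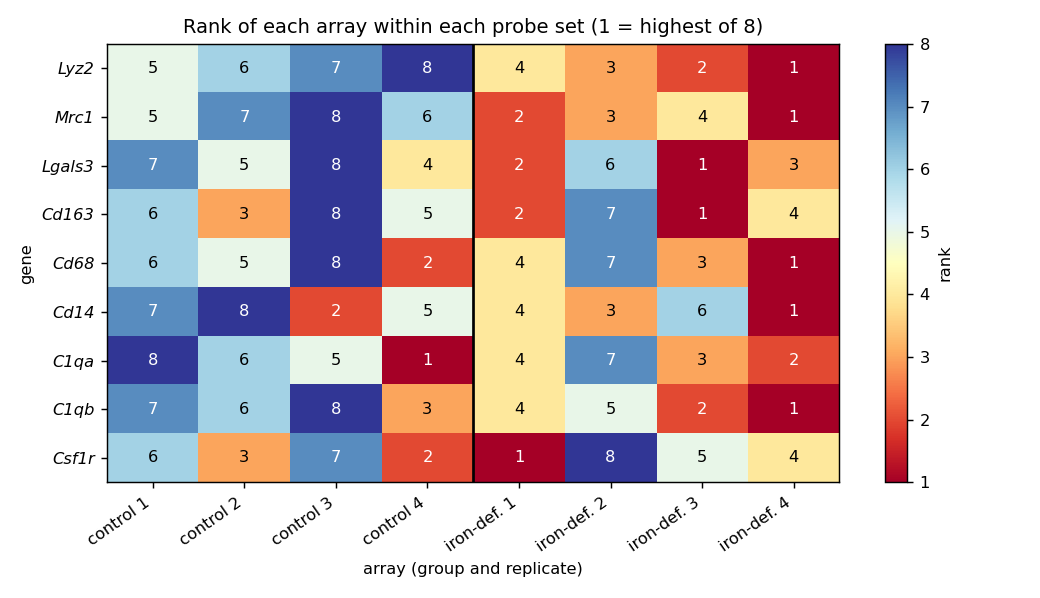
Rank of each of the 8 livers within each probe set, with genes as rows, livers as columns and 1 for the highest value; the black line divides control from iron-deficient livers. Iron-deficient replicate 4 was highest for 5 of the 9 genes and control replicate 3 lowest for 5.

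The same livers tended to be high or low across the genes, within as well as between the diets. Iron-deficient replicate 4 was the highest of its group for 6 of the 9 genes, and iron-deficient replicate 2 the lowest of its group for 6. Among controls, replicate 3 was the lowest for 6 genes and replicate 4 the highest for 5. The mean over the 9 genes of the values scaled to mean 0 and SD 1 over the 8 livers was 0.582, -0.465, 0.681 and 0.992 in iron-deficient replicates 1 to 4, and -0.694, -0.325, -0.910 and 0.141 in control replicates 1 to 4. Iron-deficient replicate 2, the liver with the higher Hamp value, therefore lay among the controls, and control replicate 4 lay below the other 3 iron-deficient livers. Whether Hamp and these genes are related across livers was not tested. This order of livers was not particular to macrophage genes. In iron-deficient replicates 2 and 4 and control replicates 3 and 4, lymphocyte and dendritic cell genes had mean scaled values of -0.271, 0.213, -0.786 and 0.918. Erythroid genes had -0.662, 0.616, -0.619 and 1.03, again the lowest and highest livers of each group. The neutrophil, monocyte, endothelial, stellate and hepatocyte lists had other orders.

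Pairs of genes were compared over the 8 livers for the 7 genes whose groups overlapped, 21 pairs in all. Lgals3 and Cd163 followed each other most closely, with Pearson's r of 0.950 (exact permutation p = 3.97e-04, adjusted p = 0.00833) and Spearman's rho of 0.905 (exact permutation p = 0.00456, adjusted p = 0.0479). Without the 2 livers farthest from the Lgals3 median r was 0.849. Cd68 and C1qb had r of 0.862 (exact permutation p = 0.00729, adjusted p = 0.0766) and rho of 0.905 (exact permutation p = 0.00456, adjusted p = 0.0479), with r of 0.842 without the 2 farthest livers. C1qa and C1qb had r of 0.801 (exact permutation p = 0.0193, adjusted p = 0.135) and rho of 0.762 (exact permutation p = 0.0368, adjusted p = 0.129), with r of 0.871 without the 2 farthest. In all, 17 of the 21 pairs had r above 0. The 4 pairs below 0 all held Cd14, whose lowest r was -0.415, with Cd163 (exact permutation p = 0.299, adjusted p = 0.418; rho = -0.381, exact permutation p = 0.360, adjusted p = 0.472; r = -0.179 without the 2 farthest). All pairs share the same 8 arrays and their scaling, and these correlations and permutations pooled the 2 diets. For deviations from the group means, r was 0.973 for Lgals3 with Cd163, 0.882 for Cd68 with C1qb and 0.791 for C1qa with C1qb. For Cd163 with Cd14 it was -0.693. Outside the 9 genes, 5 of 14208 genes were most like the mean scaled profile of the 9 over the 8 livers, namely Snn (r = 0.972), Ptpro (0.961), Clec4f (0.959), Vasn (0.947) and Slc8a1 (0.945), and 33 had r above 0.9. Clec4f encodes the C-type lectin used in rodents to define Kupffer cells.

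Other markers of the same cells, from a list of 20 genes of which 14 were measured, had 12 higher and 2 lower as deposited, where 47.0% of all genes were higher. Under quantile normalization without Hamp 7 were higher, where 36.1% of all genes were. That 36.1% includes positive differences of rounding size, which the counts of the lists leave out. None passed over all probe sets, and 1 of the 14, Cybb, was higher at a limma unadjusted p under 0.05, a share near the 5.74% of all genes. Cybb, the catalytic subunit of the phagocyte oxidase, differed by 0.395 ± 0.133 units (SE; limma adjusted p = 0.352) with no overlap. It was the only 1 of the 14 without overlap, where 486 of 14217 genes were higher without overlap. Folr2, a folate receptor of resident macrophages, differed by 0.753 ± 0.343 units (limma adjusted p = 0.475) but turned lower under quantile normalization. Of the defining Kupffer genes, Clec4f had a mean of 11.51 and differed by 0.506 ± 0.279 units (limma adjusted p = 0.558), Cd5l had a mean of 10.94 and differed by 0.379 ± 0.499 (0.840), and Adgre1, a surface antigen of rodent macrophages, had a mean of 7.46 and differed by 0.0663 ± 0.0758 (0.808). Adgre1 turned lower under both quantile normalizations, and Cd5l under the one without Hamp. All 3 means lay above the 25th percentile of the table. Vsig4 and Timd4 were not analysed here. The mean scaled value of the 14 genes ran from -0.588 to 0.784 in iron-deficient and from -1.15 to 0.796 in control livers, again with iron-deficient replicate 2 the lowest of its group and control replicates 1 and 3 the lowest of all. Without iron-deficient replicate 2, 14 of the 14 were higher, where 49.6% of all probe sets were. Without control replicate 3, 10 of the 14 were higher, where 49.1% of all probe sets were. Each was the lowest liver of its group for this list, so leaving it out moves the count by its choice.

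**Figure D3:**
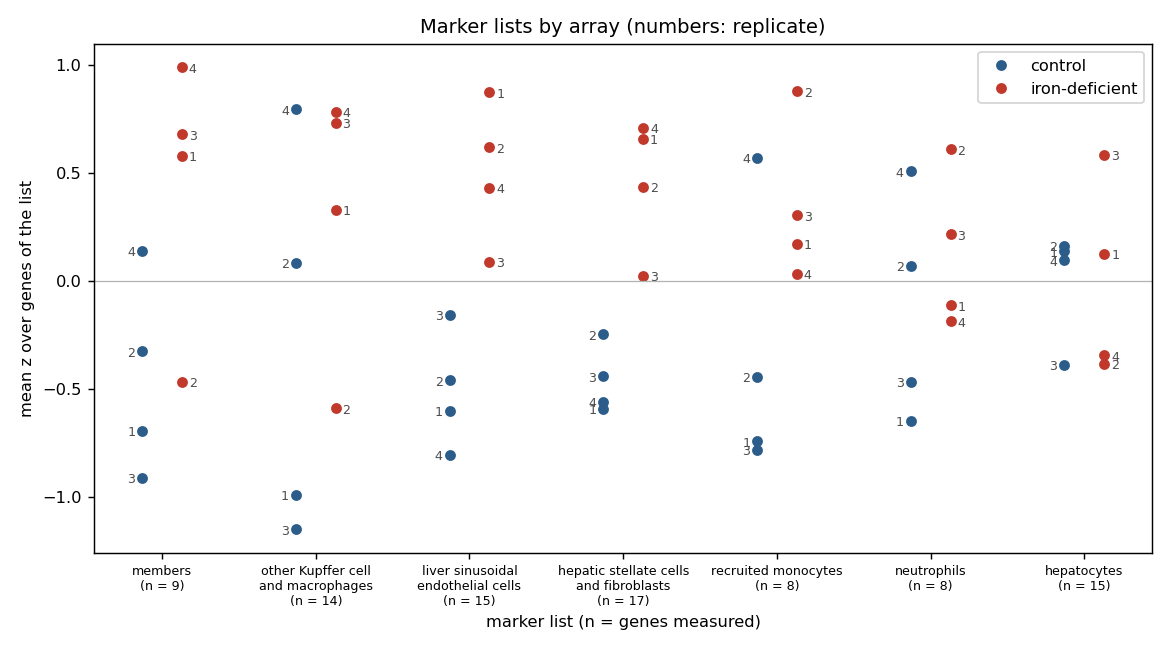
Mean over each marker list of the values scaled to mean 0 and SD 1 over the 8 livers (vertical axis), by list (horizontal axis, with the number of genes measured), for control (blue) and iron-deficient (red) livers numbered by replicate. The 9 macrophage genes and the 14 other macrophage markers overlap between the diets, while the endothelial and stellate lists do not.

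No marker of another liver cell type passed limma's adjusted threshold, but the mean scaled values of the endothelial and stellate lists did not overlap between the diets, and their part in the values of Mrc1 and Lyz2 was not tested. Of sinusoidal endothelial markers, 13 of 15 were higher, where 47.0% of all genes were, with a mean scaled value from 0.0904 to 0.875 in iron-deficient and from -0.804 to -0.156 in control livers. In this list 7 of 15 were higher at a limma unadjusted p under 0.05, where 5.74% of all genes were. Egfl7, a factor secreted by endothelial cells, differed by 4.21 ± 0.539 units (limma adjusted p = 0.0735) and Flt1, a receptor for vascular endothelial growth factor, by 24.6 ± 3.27 (0.0801). Of stellate cell and fibroblast markers, 13 of 17 were higher, from 0.0248 to 0.711 against -0.590 to -0.245, with Timp1, a protease inhibitor, at 0.860 ± 0.150 units (limma adjusted p = 0.137) and Lrat, which esterifies retinol, at 2.82 ± 0.515 (0.140). At a limma unadjusted p under 0.05, 9 of these 17 were higher, where 5.74% of all genes were. Egfl7, Flt1, Timp1 and Lrat had no overlap between the groups. Higher without overlap were 7 of 15 endothelial and 5 of 17 stellate markers, where 486 of 14217 genes were. Under quantile normalization without Hamp, 9 of the 15 endothelial and 11 of the 17 stellate markers were higher. Over all genes the share was 36.1%, which includes positive differences of rounding size that the list counts leave out. Markers of neutrophils, which also make lysozyme, had 6 of 8 higher, from -0.186 to 0.611 against -0.648 to 0.509. Lyz2 was not in that list, and 6 of the 8 had means below the 25th percentile. The neutrophil genes with the largest limma t, Lcn2 and S100a9, differed by 3.30 ± 1.85 and 14.2 ± 9.29 units (limma adjusted p = 0.564 and 0.630).

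Genes of recruited monocytes had 8 of 8 higher as deposited and 2 higher under quantile normalization without Hamp, from 0.0336 to 0.880 against -0.782 to 0.573, with 3 means below the 25th percentile. Plac8 differed by 21.4 ± 6.15 units (limma adjusted p = 0.295), and the chemokine gene Ccl7 by 0.0238 ± 0.0157 (0.633), which turned lower under quantile normalization. Of the genes named in this paragraph, Plac8 and Ahsp were higher and Asgr1 lower without overlap. Over all 14217 genes, 486 were higher and 626 lower without overlap. Lymphocyte and dendritic cell genes had 7 of 15 higher, from -0.271 to 0.213 against -0.786 to 0.918, with Cd3e at -0.0395 ± 0.0173 units (limma adjusted p = 0.456; higher under quantile normalization) and Ptprc, the pan-leukocyte antigen, at 2.81 ± 1.26 (0.468). Erythroid genes had 5 of 9 higher, from -0.662 to 0.616 against -0.619 to 1.03, with Ahsp at 1.88 ± 0.434 (0.219) and Gata1 at -0.0511 ± 0.0192 units (0.399). Hepatocyte markers had 8 of 15 higher, from -0.382 to 0.587 against -0.388 to 0.165, with the asialoglycoprotein receptor genes Asgr2 and Asgr1 at -0.0429 ± 0.0170 and -0.871 ± 0.370 units (limma adjusted p = 0.417 and 0.448), both higher under quantile normalization. Some hepatocyte differences were far below the median of 4.49e-06 over all probe sets, such as -5.00e-09 for Alb and 5.25e-08 for Cps1 on the deposited scale. The sign count and scaled values of this list therefore say little. None of these genes passed over all probe sets.

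Genes that act beside the 9 were then counted by role and by the sign of their difference, where 47.0% of all genes were higher. Some genes are counted in more than 1 list, such as Stab2, C1qc, Ctss, Csf3r and Tyrobp, so the counts are not independent. Of the genes named below from these lists, Tfrc, Spic, Slc11a2, Tlr4, Tirap, Cd93, Stab2, Cd36, Lgals4, Il1b and Ccl4 had no overlap. Over all 14217 genes, 486 were higher and 626 lower without overlap. Of 14 measured genes of iron and heme recycling, 8 were higher and 6 lower, and Tfrc, the transferrin receptor, was the only one past the adjusted threshold, rising by 373 ± 14.5 units (SE; limma adjusted p = 0.00120). Spic, the transcription factor of red-pulp and other iron-recycling macrophages, differed by 0.103 ± 0.0174 units (limma adjusted p = 0.131), but its mean of 6.45 lay below the 25th percentile and it turned lower under quantile normalization. Slc11a2, an iron importer, differed by 1.10 ± 0.192 (0.137), also lower under quantile normalization. Slc40a1, which encodes ferroportin, and Hmox1, which opens the heme ring, differed by -0.109 ± 0.187 and 0.119 ± 2.74 units (limma adjusted p = 0.887 and 0.995), where Slc40a1 turned higher under quantile normalization and Hmox1 lower under that without Hamp. Beside Cd163, then, neither the exporter nor the heme oxygenase gene showed a difference larger than its SE.

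Around Cd14, 5 of 14 genes of lipopolysaccharide recognition were higher. Tlr4 differed by 0.0444 ± 0.00840 units with no overlap (limma adjusted p = 0.152) but was lower under quantile normalization. Tirap, an adaptor of its signal, differed by -0.621 ± 0.161 (0.254), also with no overlap. Of 11 complement genes around C1q, 9 were higher, with Cd93, a receptor of endothelial and myeloid cells, at 1.34 ± 0.269 units (limma adjusted p = 0.168) and C1r, the protease partner of C1q, at 9.13 ± 3.58 (0.414). Of 12 genes of Csf1r signalling and macrophage identity, 8 were higher, with Cebpb, a transcription factor, at 7.16 ± 2.23 units (0.324) and the ligand gene Csf1 at 0.274 ± 0.152 (0.560). Under quantile normalization without Hamp the counts higher in these 3 lists were 1, 4 and 3.

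Of 15 scavenger and engulfment receptors, 10 were higher, with Stab2, a hyaluronan receptor of sinusoidal endothelium, at 22.5 ± 3.71 units (limma adjusted p = 0.127) and Cd36, a receptor for fatty acids and oxidised lipoproteins, at 515 ± 143 (0.277). Of 15 macrophage activation genes, 6 were higher and 9 lower. The 2 with the largest absolute limma t were lower with no overlap, where 626 of all 14217 genes were. Il1b, the gene of interleukin 1 beta, differed by -0.123 ± 0.0273 units (limma adjusted p = 0.209) and Ccl4, a chemokine gene, by -1.26 ± 0.354 (0.284). Of 12 lysosomal genes beside Cd68, 6 were higher, with Lamp1 at -1.91 ± 0.772 units (0.424; higher under quantile normalization) and the cathepsin gene Ctsz at -0.188 ± 0.0766 (0.429). Of 7 galectin genes beside Lgals3, 5 were higher, with Lgals4 at 0.0559 ± 0.0166 units (0.311; lower under quantile normalization) and Lgals3bp, whose product binds galectin 3, at 3.59 ± 1.26 (0.369). Median centring added 5.06e-05 on the deposited scale to all differences, so smaller negative values such as those of Il1b, Ctsz and Gata1 turned higher under it. None of these genes passed over all probe sets.

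**Figure D4:**
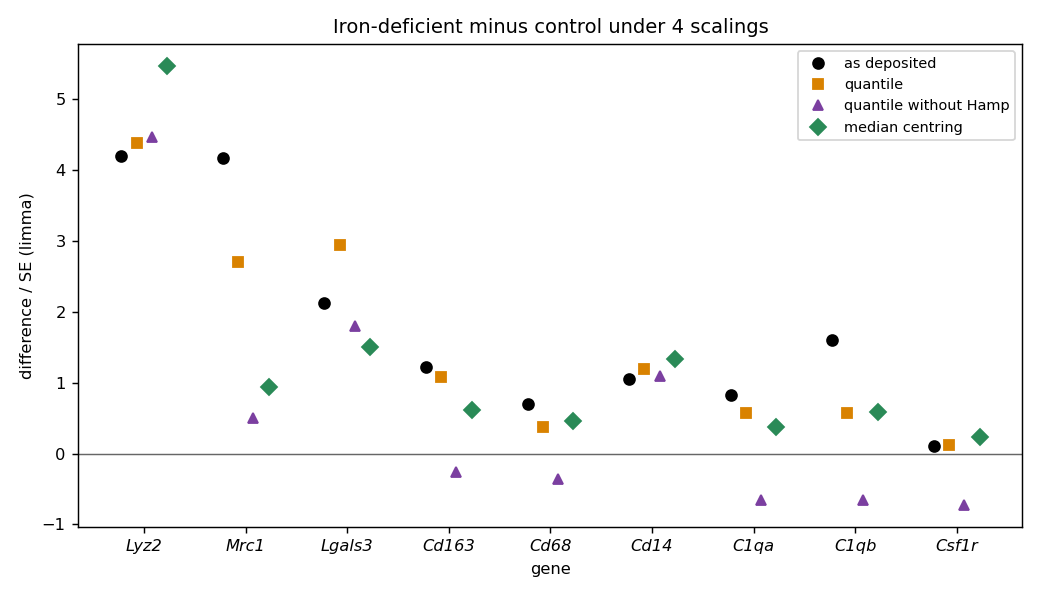
Difference divided by its SE from limma (vertical axis) for the 9 genes (horizontal axis) under 4 scalings of the arrays. Lyz2, Mrc1, Lgals3 and Cd14 stayed above 0 under each, and Cd163, Cd68, C1qa, C1qb and Csf1r fell below 0 under quantile normalization without Hamp.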

How the data were processed

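Total RNA of 8 livers was measured on Affymetrix rat arrays, with biotin-labelled cRNA made from 2 ug of RNA per the labels. The authors deposited a table of log2 values for 31099 probe sets, a unit read from the values. Steps of summarisation and normalization were not given in the sources used here. Setting aside 57 control probe sets gave the 31042 tested. Among them 20826 had 1 symbol, 436 several and 9780 none, per the platform annotation, and 20758 symbols were matched by gene identifier. Elsewhere the probe set of highest mean stood for a gene.

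Iron-deficient minus control was fitted to the values as deposited with limma (version 3.58.1, R 4.3.3; lmFit, eBayes), without trend, robust option or replicate block, and adjusted by Benjamini-Hochberg over all 31042 probe sets at 0.05. Exact permutation tests are two-sided. The code was tested on simulated data, where shifts of 2, 4, 8 and 16 SD passed in 0%, 30%, 90% and 100% of cases. The genes and lists were chosen with earlier results of these data known. Each list named its genes past the threshold and the 2 with the largest absolute limma t, besides defining Kupffer genes, Slc40a1 and Hmox1. Alternatives were 2 quantile normalizations, median centring, a filter on the 25% of probe sets with the lowest means, a replicate block, a trended robust variance and each array left out.

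Same-numbered arrays of the groups did not deviate together, with correlations of -0.111, 0.0245, -0.0251 and -0.0773 for numbers 1 to 4, so the numbers were not taken as pairs.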

Additional observations from a re-analysis of the deposited data

Results flagged for a closer look

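C1qa in iron-deficient replicate 2 read 10.86384, the lowest of its group, and its gap to the next liver was 0.844 of the group's range, above Dixon's 95% critical value for 4 samples. It was the 1 such case in 18 sets of 4 values, where chance gives about 1 in 20. Without this liver the C1qa difference was 7.03e-05 on the deposited log2 scale, against 4.02e-05 with it, and without control replicate 1 it was 6.28e-06. The cause was not tested.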

How the results depend on the processing

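The count of called probe sets was 10 as deposited, 1093 under quantile normalization, 83 under that normalization without Hamp, 63 under median centring and 1 with a replicate block, and 4 to 27 with 1 array left out. Of the calls as deposited 7 were higher and 3 lower, against 993 and 100 under quantile normalization, 42 and 41 without Hamp, and 52 and 11 under median centring. None of the 9 macrophage probe sets was called under any of the 14 alternatives. The number of them without overlap was 2 as deposited, 1 under each of the 3 scalings, and 2 to 3 with 1 array left out. The share of all probe sets higher without overlap was 3.07%, then 4.83% under quantile normalization, 0.883% without Hamp, 0.409% under median centring and 4.05% to 6.56% with 1 array left out. Under quantile normalization without Hamp the differences turned to -6.09e-05 for Cd163, -6.95e-05 for Cd68, -8.45e-04 for C1qa, -6.88e-05 for C1qb and -1.72e-04 for Csf1r on the deposited log2 scale, and the cause was not tested. Csf1r ran from -1.06e-05 to 1.20e-05 with 1 array left out. With the replicate block Mrc1 had a limma adjusted p of 0.323 and Lyz2 of 0.502, and the block changed no call among the 9. Averaging the probe sets of a gene was not run, since each of the 9 genes has 1.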
